A study of Mus musculus with 16 samples.

Results

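The genes described here are 10 genes of lipid droplet storage and breakdown among 47643 genes in the TPM table: G0s2, Pnpla2, Abhd5, Lipe, Mgll, Plin2, Plin3, Plin4, Plin5 and Dgat2. They were chosen by symbol. G0s2 was selected on its TPM values, because its difference between knockout and wild-type muscle ran in opposite directions at the 2 ages in these same samples, so its values are given as a description with no test, and tests are given for the other 9. All 10 had a mean TPM of at least 1 and entered the fit over 10628 genes.

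RNA was measured in whole tibialis anterior muscle of C57BL6/J mice, labelled male, in 4 groups of 4. UBR4 mKO mice carried homozygous floxed Ubr4 alleles and an ACTA1-Cre transgene, whose skeletal actin promoter is active in muscle fibers, and WT mice were siblings with the same floxed alleles and no Cre. Both genotypes received tamoxifen as young adults, and muscles were taken at 6 or 24 months of age. Recombination was therefore directed to muscle fibers, and other cells of the muscle kept the floxed alleles intact.

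A lipid droplet stores triglyceride in a coat of perilipin proteins. Breakdown starts with adipose triglyceride lipase, the product of Pnpla2, which the Abhd5 product (CGI-58) activates and the small protein G0S2 inhibits. Hormone-sensitive lipase (Lipe) and monoacylglycerol lipase (Mgll) act on the diglyceride and monoglyceride that follow, and DGAT2 catalyses the last step of triglyceride synthesis. In muscle, droplets supply fatty acids to mitochondria, and the same proteins are abundant in adipocytes, which can lie between muscle fibers.

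Ubr4 itself was lower in knockout muscle, at 4.91 to 6.54 TPM against 9.09 to 15.7 in WT at 6 months and 4.28 to 14.6 against 17.0 to 21.1 at 24 months. The 6 muscle fiber markers summed to between 64173 and 90569 TPM in every sample. Sex-linked transcripts did not all follow the male label. Xist, the RNA of X inactivation in females, was 2.91 to 13.0 TPM in 6-month WT and 0.711 to 23.8 in 6-month UBR4 mKO samples, and at most 0.0252 at 24 months. Its highest value was in 6-month UBR4 mKO replicate 4, in which the Y-linked Ddx3y was 0.0730 TPM, and Ddx3y was 2.29 TPM or higher in every other sample. The other 6-month samples thus held both Xist and Ddx3y RNA. Whether each of these libraries holds RNA of a single mouse was not tested. The age comparisons therefore set samples with Xist beside samples without it, which cannot be told apart from age. TPM sums to a fixed total in each sample, and transcripts of the mitochondrial genome took 56.3 ± 3.01% of it in 6-month WT (SD, n = 4), 47.9 ± 1.71% in 6-month UBR4 mKO, 50.1 ± 1.85% in 24-month WT and 48.6 ± 1.57% in 24-month UBR4 mKO. The median gene was 0.33 higher on the log2 scale in 6-month UBR4 mKO than in 6-month WT and 0.26 higher in 24-month than in 6-month WT. Differences below are given on the log2(TPM + 0.1) scale and then against that median, and a call is a limma p-value adjusted over all genes tested that is under 0.05.

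The promoters of the inhibitor, of its target lipase and of the coat gene with the steadiest difference at 6 months are shown because these 3 genes carry most of the comparisons. Each window is the RefSeq sequence of GRCm38.p6 from 250 bases before to 50 bases after the start site, read 5′ to 3′ on the gene's strand. Capitals mark the GC box (GGGCGG or CCGCCC), the E-box (CACGTG), a nuclear receptor half-site (AGGTCA or TGACCT) and the CCAAT box (CCAAT or ATTGG). The windows are chr1:193273139-193273438 on the minus strand for G0s2, chr7:141454938-141455237 on the plus strand for Pnpla2 and chr4:86670010-86670309 on the minus strand for Plin2.
G0s2: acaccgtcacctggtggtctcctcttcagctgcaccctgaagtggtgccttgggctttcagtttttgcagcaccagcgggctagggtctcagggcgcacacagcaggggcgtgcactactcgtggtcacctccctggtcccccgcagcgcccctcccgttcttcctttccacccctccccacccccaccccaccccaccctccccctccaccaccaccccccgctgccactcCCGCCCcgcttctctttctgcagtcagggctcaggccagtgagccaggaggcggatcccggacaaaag
Pnpla2: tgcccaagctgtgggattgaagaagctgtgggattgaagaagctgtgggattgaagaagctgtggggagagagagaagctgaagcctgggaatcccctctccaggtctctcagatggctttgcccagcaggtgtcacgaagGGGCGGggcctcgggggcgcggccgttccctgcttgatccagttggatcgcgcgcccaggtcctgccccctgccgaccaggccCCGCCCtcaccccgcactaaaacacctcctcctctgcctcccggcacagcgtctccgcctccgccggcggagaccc
Plin2: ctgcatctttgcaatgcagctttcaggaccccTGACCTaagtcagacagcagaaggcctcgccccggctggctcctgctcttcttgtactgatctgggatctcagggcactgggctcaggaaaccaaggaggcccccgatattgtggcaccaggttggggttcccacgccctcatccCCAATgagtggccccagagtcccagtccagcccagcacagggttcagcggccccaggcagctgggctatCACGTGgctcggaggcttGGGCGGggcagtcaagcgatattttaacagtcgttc

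The G0s2 window held 1 GC box and none of the other marked motifs, the Pnpla2 window held 2 GC boxes, and the Plin2 window held 1 of each of the 4 motifs. Across 32851 promoter windows of the same length, searched on both strands, 35.7% held a GC box, 7.15% the E-box, 16.3% the half-site and 37.4% a CCAAT box. The direct repeat of the half-site with a gap of 1 base, the form read by PPAR receptors, was in 0.0396% of windows and in 0 of the 12 windows found for 9 of the 10 genes. At a share that low, 0 of 12 windows says nothing about these genes. The motif set was chosen after the values were known, and a match says only that the letters are there. Only exact letters within these windows were searched, so an absence does not show that a gene lacks a site.

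In GRCm38 the 3 genes Plin4 (chr17:56100591-56109803), Plin5 (chr17:56111601-56117596) and Plin3 (chr17:56277476-56292873) lie on the minus strand of 1 chromosome, with 1797 bases between Plin4 and Plin5. Pnpla2 (chr7:141455198-141460743), Lipe (chr7:25379527-25398710) and Dgat2 (chr7:99153658-99182719) share chromosome 7. G0s2 is at chr1:193272161-193273217, Plin2 at chr4:86648386-86670060, Mgll at chr6:88724412-88828360 and Abhd5 at chr9:122351608-122381524. Exons of Abhd5, Lipe and Mgll overlap the antisense genes A730085K08Rik, 4732471J01Rik and Gm26588 by 950, 918 and 167 bases. Whether counting used strand is not given in the sources used here, so reads there may be assigned to either partner. The 3 antisense genes had mean TPM of 0.0042, 0.0814 and 0.0175 over the 16 samples. Gm12551, which matches Plin2 over 280 bases with 93.9% identity, was listed at 0.

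TPM is scaled by transcript length, so levels may be set between genes. Over 16 samples Pnpla2 had the highest mean at 112 TPM, followed by Plin4 at 88.6, Plin3 at 22.7, Abhd5 at 20.7, G0s2 at 17.3, Plin5 at 16.5, Mgll at 14.4, Dgat2 at 13.7, Plin2 at 11.9 and Lipe at 5.71. The first lipase of the cascade was thus far more abundant than the second as RNA. Within the groups Plin4 varied most, with a mean coefficient of variation of 33.8%, followed by G0s2 with 30.4%, and Abhd5 least, with 6.87%.

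**Figure D1:**
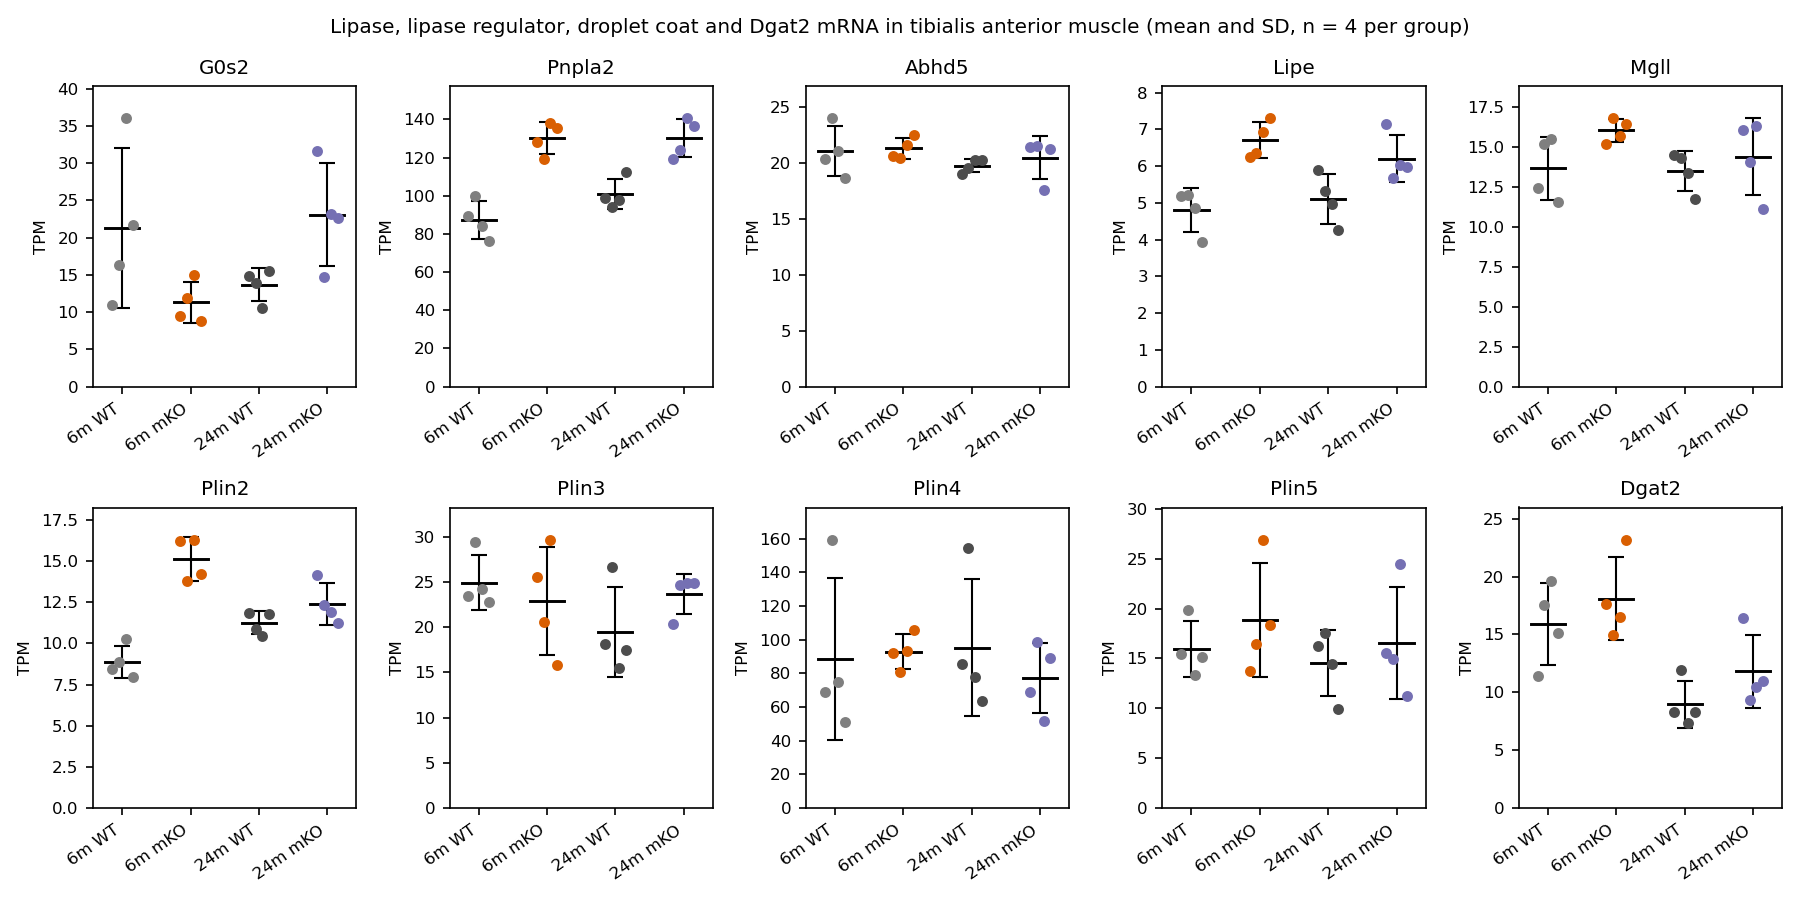
TPM of each of the 10 genes in tibialis anterior muscle. Points are single samples, 4 in each of the groups 6-month WT, 6-month UBR4 mKO, 24-month WT and 24-month UBR4 mKO (mKO in the axis labels), horizontal lines are means and bars are SD. Pnpla2 separates the genotypes at both ages, Plin2 and Lipe separate them at 6 months, and G0s2 overlaps between all groups.

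Counted over the 9 tested genes, 3 rose (Pnpla2, Lipe and Plin2) and 0 fell in UBR4 mKO at 6 months, where limma called 44.9% of all genes, 43.7% as higher and 1.15% as lower. The same 3 had groups that did not overlap, as did 39.9% of all genes. The median of the 9 was 0.21 against 0.33 for all genes. Under median-of-ratios scaling, which removes a general shift, Plin2 was called higher and Abhd5 lower, beside 16.8% of all genes. At 24 months 0 of 9 were called by limma, beside 0.63% of all genes (0.433% higher and 0.198% lower), 1 (Pnpla2) had groups that did not overlap, beside 5.8%, and the median was 0.16 against 0.013. Unadjusted limma p-values there were 0.000779 for Pnpla2 and 0.0345 for Lipe, where 10.1% of all genes had one under 0.05, and median-of-ratios scaling called 0, beside 0.915%. Dunn tests called 0 of the 9 and 0 of all 10628 genes there.

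With age in WT Plin2 rose and Dgat2 fell, where limma called 25.1% of all genes, 24.0% as higher and 1.07% as lower. Plin2 was the 1 gene of the 9 without overlap there, beside 25.9%. Median-of-ratios scaling called 9.75% of all genes and 3 of the 9, Dgat2, Abhd5 and Plin3, all lower. With age in UBR4 mKO 0 of 9 were called, beside 6.29% (2.45% higher and 3.85% lower), or 11.3% under median-of-ratios scaling. Plin2 and Dgat2 had unadjusted limma p-values of 0.0117 and 0.00580, where 19.7% of all genes had one under 0.05. Dunn tests called 0 of all 10628 genes there, and 0 of 9 had groups without overlap, beside 12.9%. In the difference between the knockout effects at the 2 ages 1 of 9 was called, Plin2, beside 4.7% (0.122% higher and 4.58% lower), and under median-of-ratios scaling 1, Abhd5, beside 1.96%. The numbers of members called at 6 months and with age in WT were near these backgrounds.

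G0s2, the inhibitor, was lower on average in knockout muscle at 6 months and higher at 24 months. The sign of the knockout difference also changed between the ages for Plin3 (-0.15 and 0.31 on the log2 scale) and Plin4 (0.20 and -0.26), whose differences did not pass at either age. In 6-month WT muscle its level was 11.002, 16.4, 36.0 and 21.7 TPM in replicates 1 to 4, and in 6-month UBR4 mKO muscle it was 9.45, 11.95, 14.99 and 8.88. In 24-month WT it was 14.8, 13.9, 10.5 and 15.6 TPM, and in 24-month UBR4 mKO it was 31.6, 14.7, 23.2 and 22.7. The order of the means was 24-month UBR4 mKO (23.1 ± 6.91, SD, n = 4), 6-month WT (21.3 ± 10.8), 24-month WT (13.7 ± 2.22) and 6-month UBR4 mKO (11.3 ± 2.79). The ranges of neighbours in this order overlapped, and even the highest and lowest groups met, at 14.99 and 14.7 TPM. The spread was widest in 6-month WT, where replicate 3 alone reached 36.0.

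As a log2 difference G0s2 was -0.80 (SE 0.29) in UBR4 mKO against WT at 6 months and 0.71 at 24 months, and the difference between these values was 1.51. Within WT it was -0.51 at 24 against 6 months, and within UBR4 mKO it was 1.00. These values chose the gene and are not tested. Without 6-month UBR4 mKO replicate 4, the sample with the highest Xist, the 6-month value of G0s2 was -0.70 and the difference between ages 1.41, and with Xist as a covariate they were -0.79 and 1.51. The size at 6 months rested in part on 6-month WT replicate 3: without it the G0s2 value was -0.50 at 6 months, -0.22 with age in WT and 1.22 for the difference between ages. Array weights, which give samples far from their group less weight, gave -0.28, -0.029 and 0.92 for the same 3 values, and median-of-ratios scaling gave -1.15, -0.79 and 1.84. The G0s2 locus overlaps Lamb3 on the opposite strand, with 0 shared exonic bases.

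Adipocyte RNA moved with G0s2 in 24-month UBR4 mKO muscle. The summed TPM of 8 adipocyte markers was 73.5, 11.9, 39.3 and 31.7 in 24-month UBR4 mKO replicates 1 to 4, against 8.37 to 20.4 in 24-month WT, 9.09 to 17.3 in 6-month WT and 9.40 to 19.3 in 6-month UBR4 mKO. Within 24-month UBR4 mKO the sample with the most adipocyte RNA, replicate 1, had the most G0s2 (31.6 TPM), and replicate 2, with adipocyte RNA in the WT range, had the least (14.7). That replicate 2 also stood apart in Ubr4, at 14.6 TPM against 4.28 to 10.1 in the other 3 of its group and 17.0 to 21.1 in 24-month WT, and without it the 24-month G0s2 difference was 0.91 in place of 0.71. The part of residual Ubr4 was not tested. Adiponectin RNA (Adipoq), made by adipocytes, was 10.01 TPM in that replicate 1 and 1.13 in replicate 2. The other groups followed this only in part. In 24-month WT the highest adipocyte sum was in replicate 2 (20.4 TPM) and the highest G0s2 in replicate 4 (15.6 TPM, with a sum of 12.1). Replicate 3 of that group was the lowest in both, at 10.5 TPM of G0s2 and a sum of 8.37. In 6-month UBR4 mKO replicate 3 had both the highest G0s2 (14.99 TPM) and the highest adipocyte sum (19.3), whereas in 6-month WT replicate 3 had the highest G0s2 and the lowest adipocyte sum, 9.09 TPM. Pearson r of log2 G0s2 with the log2 adipocyte sum was 0.95 over the 8 samples at 24 months. It was -0.032 over the 8 at 6 months and 0.56 over all 16. These coefficients hold the group values that chose G0s2. Of the 3 adipocyte markers with a mean TPM of at least 1, 0 passed the limma test at either age. The part of adipocyte RNA in the G0s2 values was not tested, and in whole muscle fewer cells of a type and less RNA per cell cannot be told apart.

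**Figure D2:**
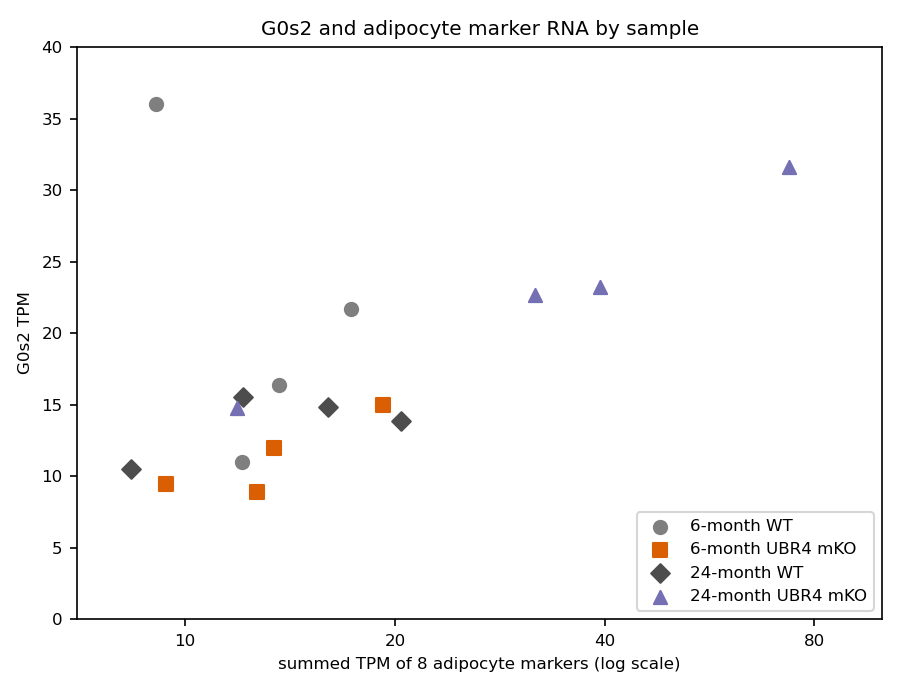
G0s2 TPM against the summed TPM of 8 adipocyte markers (log axis), with 1 symbol per sample. Among the 24-month UBR4 mKO samples, 3 lie to the upper right at sums of 31.7 to 73.5, and the 6-month WT sample with 36.0 TPM of G0s2 lies at the left, at 9.09.

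Of 10118 named genes, the 5 whose log2 levels followed G0s2 most closely over the 16 samples were Agpat2 (Pearson r = 0.67), Cdo1 (0.60), Ak4 (0.59), Siva1 (0.58) and Cfd (0.58). Agpat2 encodes an acyltransferase of triglyceride and phospholipid synthesis and Cfd encodes adipsin, an adipocyte product. Agpat2 was 5.09, 3.08, 5.14 and 3.72 TPM in 24-month UBR4 mKO and between 2.44 and 4.03 in the other 12 samples. The 5 least like it were Icam1 (-0.69), Nfkbia (-0.69), Trub1 (-0.69), Alg14 (-0.68) and Ift22 (-0.68). Icam1, a leukocyte adhesion molecule, was 2.47, 3.88, 2.51 and 4.13 TPM in 24-month UBR4 mKO. The samples share groups and the scaling of TPM, so these coefficients are descriptions over 16 points. G0s2 was chosen on its group values, and coefficients over all samples carry that choice. Taken within groups, those of the 5 most alike were 0.78, 0.40, 0.44, 0.17 and 0.49 in the order above. Those of the 5 least alike were -0.66, -0.49, -0.45, -0.40 and -0.75. Among the other 9 genes the coefficients with G0s2 ran from 0.28 for Plin3 to -0.34 for Plin4. Within groups they ran from 0.55 for Plin2 (-0.22 over all samples) to -0.23 for Plin4, with 0.51 for Dgat2 (0.11 over all samples).

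Pnpla2, the lipase that opens the cascade, was higher in knockout muscle. Its level was 89.3, 99.9, 84.3 and 76.3 TPM in 6-month WT and 128, 119, 138 and 136 in 6-month UBR4 mKO. In 24-month WT it was 99.1, 94.2, 97.9 and 113 TPM, and in 24-month UBR4 mKO 119, 124, 141 and 137. Every knockout sample was above every WT sample of its age. At 6 months Pnpla2 rose by 0.58 on the log2 scale (SE 0.090, limma adjusted p = 0.000302), which is 0.25 above the median gene. At 24 months the difference was 0.37, which is 0.35 above the median gene, and did not pass (limma adjusted p = 0.0831). It passed after rescaling without mitochondrial genes, at 0.33 (limma adjusted p = 0.0168, beside 0.613% of all genes), and with array weights, at 0.34 (limma adjusted p = 0.0205, beside 2.39%). After median-of-ratios scaling the 6-month difference was 0.22 (limma adjusted p = 0.0898), so the 6-month call depends on the scaling. Without 6-month UBR4 mKO replicate 4 it was 0.56 (limma adjusted p = 0.00128). The knockout means were 130 ± 8.42 TPM at 6 months and 130 ± 10.1 at 24 months (SD, n = 4), and in WT the age difference was 0.21 (limma adjusted p = 0.0857).

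Abhd5, the activator, stayed near 20 TPM. It was 20.4, 24.0, 21.1 and 18.6 TPM in 6-month WT, 20.6, 20.5, 21.6 and 22.5 in 6-month UBR4 mKO, 19.1, 19.5, 20.3 and 20.2 in 24-month WT and 21.5, 21.6, 17.6 and 21.3 in 24-month UBR4 mKO. The groups overlapped in all comparisons. The 6-month knockout difference was 0.023 on the log2 scale (95% interval -0.17 to 0.22, limma adjusted p = 0.834), and set against the median gene it was -0.30. Under median-of-ratios scaling Abhd5 was lower in 6-month UBR4 mKO by -0.33 (limma adjusted p = 0.00181) and lower with age in WT by -0.36 (limma adjusted p = 0.0016), so its direction depends on whether the general shift is removed.

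The ratio of 2 genes within a sample is free of that scaling. There were 24.1 ± 0.92 Abhd5 TPM per 100 TPM of Pnpla2 in 6-month WT (SD, n = 4) and 16.4 ± 0.646 in 6-month UBR4 mKO, with ranges of 22.9 to 25.03 and 15.7 to 17.2. At 24 months the ratio was 19.7 ± 1.32 in WT and 15.9 ± 2.46 in UBR4 mKO, and the ranges met, with 17.99 the lowest in WT and 18.01 the highest in UBR4 mKO. The activator was therefore at a lower level per lipase RNA in each 6-month knockout sample than in any 6-month WT sample. G0s2 per 100 Pnpla2 was 12.3 to 42.7 in 6-month WT and 6.55 to 10.9 in 6-month UBR4 mKO, without overlap. At 24 months it was 10.7 to 14.95 in WT and 11.9 to 26.5 in UBR4 mKO, with overlap. The ratios were chosen after the values were seen and are not tested, and the G0s2 ratio holds the values that chose the gene.

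**Figure D3:**
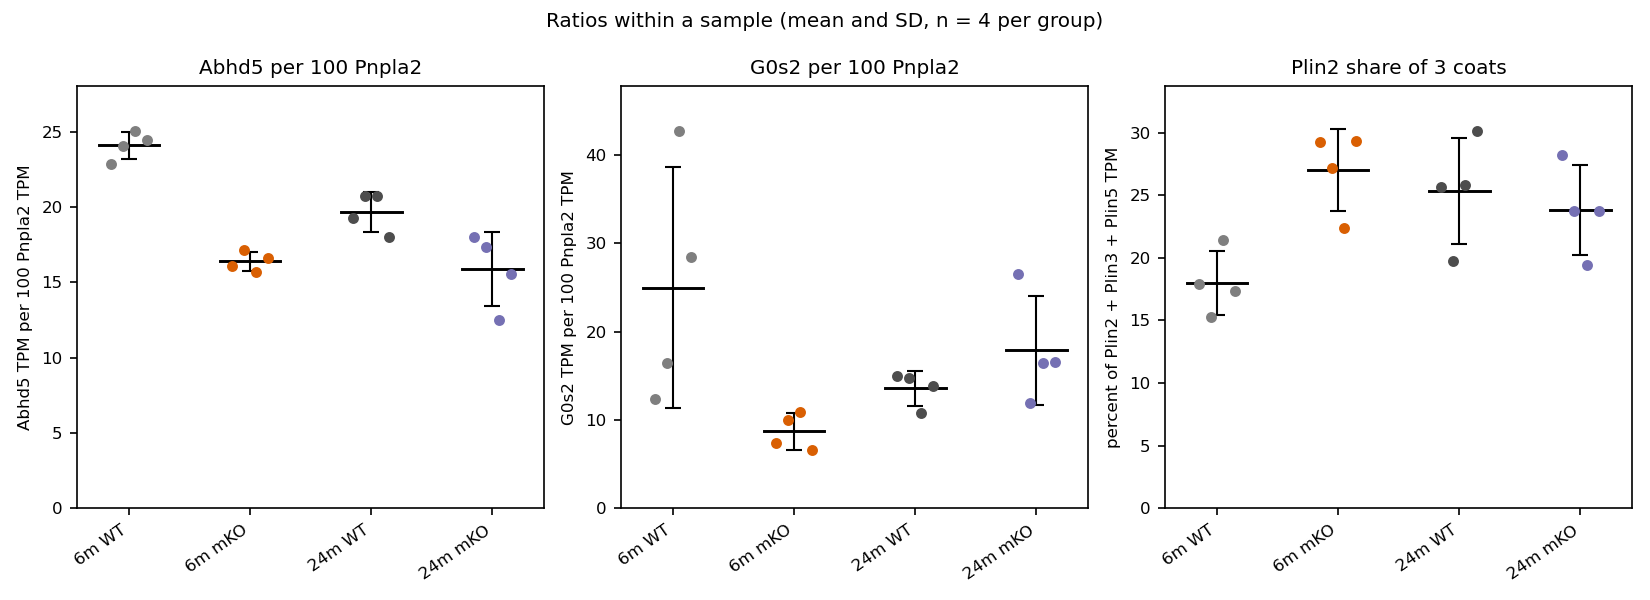
Ratios of TPM within each sample, with points for single samples, lines for means and bars for SD (n = 4 in each of the 4 groups). The left panel, Abhd5 per 100 Pnpla2, has 6-month WT at 22.9 to 25.03 and 6-month UBR4 mKO at 15.7 to 17.2, the middle panel gives G0s2 per 100 Pnpla2, and the right panel gives Plin2 as a percentage of Plin2, Plin3 and Plin5 together.

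Lipe, hormone-sensitive lipase, was the least abundant of the 10 genes. It was 5.20, 5.21, 4.87 and 3.94 TPM in 6-month WT and 6.26, 6.36, 6.94 and 7.31 in 6-month UBR4 mKO, without overlap. At 24 months it was 5.90, 5.31, 4.98 and 4.27 TPM in WT and 7.16, 5.68, 6.03 and 5.97 in UBR4 mKO, with overlap. Lipe rose by 0.48 on the log2 scale at 6 months (SE 0.12, limma adjusted p = 0.00611), 0.15 above the median gene. Without 6-month UBR4 mKO replicate 4 it was 0.44 (limma adjusted p = 0.0217). The call was lost under median-of-ratios scaling, with a difference of 0.13 (limma adjusted p = 0.379). It was also lost after rescaling without mitochondrial genes, with a difference of 0.23 (limma adjusted p = 0.170). At 24 months the difference was 0.28 (limma adjusted p = 0.433). Lipe kept to 5.49 ± 0.356 TPM per 100 of Pnpla2 in 6-month WT (SD, n = 4) and 5.16 ± 0.244 in 6-month UBR4 mKO, and these ranges overlapped.

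Mgll, which releases the last fatty acid, was 11.6 to 15.5 TPM in 6-month WT and 15.2 to 16.8 in 6-month UBR4 mKO. It was 11.8 to 14.5 TPM in 24-month WT and 11.1 to 16.4 in 24-month UBR4 mKO. Its groups overlapped at both ages. The knockout differences were 0.24 (limma adjusted p = 0.123) and 0.081 on the log2 scale. With array weights the 6-month difference was 0.31 and passed (limma adjusted p = 0.00742), where 64.1% of all genes passed, while under median-of-ratios scaling it was -0.11.

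Plin2, a coat protein of most cells that rises with droplet lipid, had the largest knockout difference of the coat genes at 6 months. It was 8.48, 8.90, 10.2 and 7.98 TPM in 6-month WT and 16.2, 13.8, 16.3 and 14.2 in 6-month UBR4 mKO. In 24-month WT it was 11.9, 10.9, 10.5 and 11.8 TPM, and in 24-month UBR4 mKO 14.1, 12.3, 11.9 and 11.2. The 6-month knockout samples were all above every WT sample of either age, and the 24-month groups overlapped. At 6 months Plin2 rose by 0.76 on the log2 scale (SE 0.10, limma adjusted p = 9.42e-05), 0.43 above the median gene, and it was called in 29 of 29 alternatives. Under median-of-ratios scaling the rise was 0.41 (limma adjusted p = 0.0127). Without 6-month UBR4 mKO replicate 4 it was 0.79 (limma adjusted p = 0.000256).

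At 24 months the Plin2 difference was 0.14 (limma adjusted p = 0.772). The knockout effect at 24 months minus that at 6 months was -0.63 (SE 0.14, limma adjusted p = 0.0238), against -0.31 for the median gene. This call was made in 19 of 27 alternatives. It was lost under median-of-ratios scaling, at -0.30 (limma adjusted p = 0.286), and after rescaling without mitochondrial genes, at -0.42 (limma adjusted p = 0.145). It was also lost when replicate 1 or 4 of 6-month WT, replicate 1 or 3 of 6-month UBR4 mKO or replicate 1 or 4 of 24-month WT was left out (limma adjusted p from 0.0502 to 0.0618). The comparisons share samples: 6-month WT enters the 6-month difference and the WT age difference. Plin2 also rose with age in WT by 0.34 (limma adjusted p = 0.0257), which is 0.075 above the median gene. This rise was not called under median-of-ratios scaling (0.067, limma adjusted p = 0.725) or after rescaling without mitochondrial genes (0.15, limma adjusted p = 0.378). It was also not called when replicate 1 or 4 of either WT group was left out (limma adjusted p from 0.0616 to 0.0878). Markers of leukocytes, cells that also make Plin2, summed to 25.5 to 40.9 TPM in 6-month WT and 86.0 to 245 in 6-month UBR4 mKO, and 5 of 5 tested rose. Their part in the Plin2 difference was not tested.

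Plin3, Plin4 and Plin5 gave no call in the 4 pairwise comparisons or in the difference between ages. Plin3, the widely made coat protein, was 22.7 to 29.4 TPM in 6-month WT, 15.9 to 29.7 in 6-month UBR4 mKO, 15.5 to 26.7 in 24-month WT and 20.3 to 24.9 in 24-month UBR4 mKO. Its age difference in WT was -0.38 (limma adjusted p = 0.108) and passed under median-of-ratios scaling, at -0.65 (limma adjusted p = 0.0455).

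Plin4, the most abundant coat gene, was 68.7, 159, 75.1 and 51.3 TPM in 6-month WT and 85.5, 155, 77.6 and 63.7 in 24-month WT. Replicate 2 stood high in both WT groups. It was 80.7 to 106 TPM in 6-month UBR4 mKO and 51.7 to 98.9 in 24-month UBR4 mKO, and both knockout groups lay within the span of all WT samples. Plin4 supplied between 45.8% and 73.7% of the summed TPM of Plin2 to Plin5 in every sample. Plin5, the coat protein of oxidative muscle that binds ATGL and Abhd5, was 13.4 to 19.9 TPM in 6-month WT, 13.7 to 26.9 in 6-month UBR4 mKO, 9.96 to 17.5 in 24-month WT and 11.2 to 24.4 in 24-month UBR4 mKO. Replicate 3 was the highest in both knockout groups.

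Without Plin4, whose spread dominates the sum, Plin2 was 15.3 to 21.5% of the summed TPM of Plin2, Plin3 and Plin5 in 6-month WT and 22.4 to 29.3% in 6-month UBR4 mKO, without overlap. The 24-month ranges, 19.8 to 30.1% in WT and 19.4 to 28.3% in UBR4 mKO, overlapped.

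Dgat2, the enzyme of the last step of triglyceride synthesis, fell with age in WT. It was 11.4, 17.5, 19.7 and 15.1 TPM in 6-month WT and 8.29, 11.9, 7.34 and 8.30 in 24-month WT. In UBR4 mKO it was 17.7, 14.9, 16.5 and 23.2 TPM at 6 months and 16.4, 9.38, 10.4 and 11.01 at 24 months. The WT groups met only where replicate 2 at 24 months (11.9) passed replicate 1 at 6 months (11.4). Dgat2 fell by 0.82 on the log2 scale in WT (SE 0.20, limma adjusted p = 0.01005), and median-of-ratios scaling gave -1.09 (limma adjusted p = 0.00226). Dunn tests after a Kruskal-Wallis test did not call it (adjusted p = 0.132), nor any other of the 10628 genes in that comparison. With the Y-linked transcripts as a covariate the WT difference was -0.67 (limma adjusted p = 0.0256). In UBR4 mKO the age difference was -0.62 (limma adjusted p = 0.0742), and without replicate 1 at 24 months, the sample with the most adipocyte RNA, it was -0.79 (limma adjusted p = 0.0210). The knockout difference was 0.19 at 6 months and 0.38 at 24 months (limma adjusted p = 0.424 and 0.556). The difference between the 2 age effects was 0.19 (limma adjusted p = 0.613), so the fall is not shown to differ between genotypes.

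**Figure D4:**
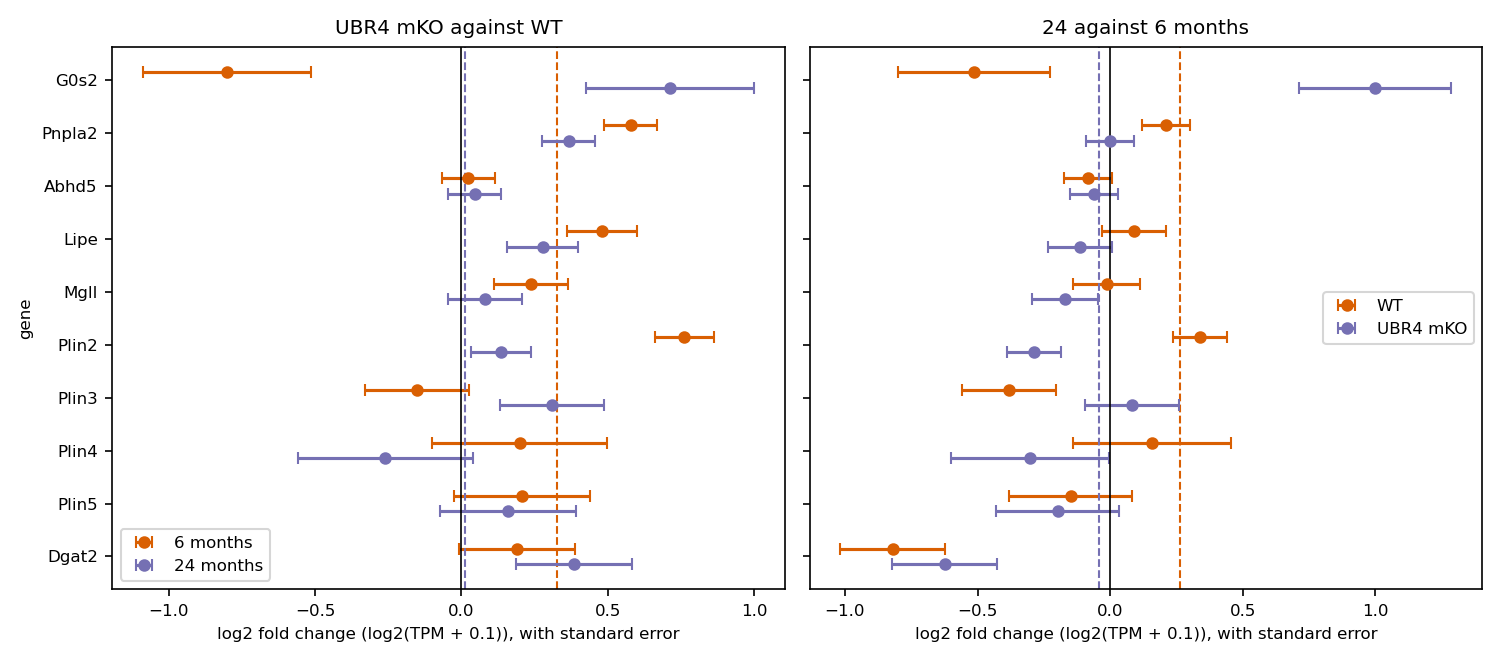
Log2 fold changes of the 10 genes with their standard errors (n = 4 per group), for UBR4 mKO against WT at 6 and 24 months (left) and for 24 against 6 months in WT and UBR4 mKO (right). Dashed lines in the same colours mark the median of 10628 genes, at 0.33 and 0.013 on the left and 0.26 and -0.043 on the right, and Plin2 at 6 months stands 0.43 above its line.

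Pnpla2, Lipe and Plin2 ran together over the 16 samples, and less closely within the groups, with Pearson r of log2 TPM of 0.79 for Pnpla2 and Plin2, 0.78 for Lipe and Plin2 and 0.75 for Pnpla2 and Lipe. Taken within groups, the same coefficients were 0.077, 0.33 and 0.12. The samples share the group differences given above and the general shift of TPM.

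The other genes of lipid handling, 60 tested, were listed by role. At 6 months 31 were higher and 0 lower in UBR4 mKO, or 51.7%, where 43.7% of all genes were called higher, and under median-of-ratios scaling 9 were called, 2 higher (Cidea and Lpin3, both among the 31) and 7 lower (none among the 31), where 16.8% of all genes were called. The largest rises by role were Lipa, lysosomal acid lipase, by 0.59 (limma adjusted p = 0.0437), Cidea, a droplet fusion protein, by 1.47 (limma adjusted p = 0.000335), Lpin3, a phosphatidate phosphatase, by 0.86 (limma adjusted p = 0.000678), Acads, the short-chain acyl-CoA dehydrogenase, by 0.59 (limma adjusted p = 0.00142), Angptl4, an inhibitor of lipoprotein lipase, by 1.26 (limma adjusted p = 0.0421) and, among PPAR and LXR receptors and targets, Pdk4, a kinase that restrains glucose oxidation, by 0.84 (limma adjusted p = 0.0108). Cidea was 0.677 to 0.766 TPM in 6-month WT and 1.67 to 3.01 in 6-month UBR4 mKO, and it and Lpin3 were also called under median-of-ratios scaling (limma adjusted p = 0.00485 and 0.0243), whereas Lipa, Acads, Angptl4 and Pdk4 were not (limma adjusted p from 0.167 to 0.471). Pdk4 was 180 to 335 TPM in 6-month WT and 355 to 480 in 6-month UBR4 mKO. Lipa was 9.42 TPM in 6-month UBR4 mKO replicate 1, the sample of that group with the most leukocyte RNA, and 5.10 to 5.70 in the other 3. Of the other cell markers tested at 6 months, 3 of 4 of endothelium, 2 of 4 of fibroblasts and 4 of 6 of muscle fibers rose. Of adipocyte, Schwann cell and blood markers, 0 of 3, 0 of 2 and 0 of 3 rose. Their part in these rises was not tested. Of 16 genes of mitochondrial fatty acid oxidation, 13 rose at 6 months, where 43.7% of all genes were called higher, with a median of 0.38 against 0.33 for all genes. Under median-of-ratios scaling the median was 0.031 and 0 of these 13 were called (lowest limma adjusted p = 0.0699, for Hadhb), whereas Acadm, the medium-chain acyl-CoA dehydrogenase, was called lower, at -0.31 (limma adjusted p = 0.0111).

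At 24 months 4 of the 60 were called, or 6.67%, beside 0.63% of all genes. Fabp4, a fatty acid carrier of adipocytes and endothelium, rose by 0.39 (limma adjusted p = 0.0474), Ech1 and Eci1, both isomerases of fatty acid oxidation, rose by 0.43 each (limma adjusted p = 0.0246 and 0.0285), and Acsl3, an acyl-CoA synthetase of droplet formation, fell by 0.86 (limma adjusted p = 0.00569). Under median-of-ratios scaling Acsl3 alone of the 4 was called, at -0.88 (limma adjusted p = 0.00429). With age Acsl3 rose by 1.25 in WT (limma adjusted p = 1.17e-05) and Acsl6, another acyl-CoA synthetase, by 0.87 (limma adjusted p = 0.00138), and both were also called under median-of-ratios scaling, at 0.99 and 0.60 (limma adjusted p = 0.000144 and 0.00986). Fabp4 fell with age in both genotypes, by 0.31 in WT (limma adjusted p = 0.0179) and by 0.36 in UBR4 mKO (limma adjusted p = 0.0165). The UBR4 mKO fall was not called under median-of-ratios scaling, at -0.30 (limma adjusted p = 0.110). Of the 4 endothelial markers, 3 fell with age in UBR4 mKO (median -0.56) and 0 in WT, and their part in the Fabp4 values was not tested. In WT 7 of the 60 rose with age and 1 fell, or 13.3%, beside 25.1% of all genes. Under median-of-ratios scaling 9 were called, 2 higher and 7 lower, 3 of them also among these 8, beside 9.75% of all genes. Besides Acsl3 and Acsl6, those that rose included Abhd6, a monoglyceride lipase, by 0.52 (limma adjusted p = 0.00517), Vldlr, a lipoprotein receptor, by 0.81 (limma adjusted p = 0.0133), Hsd17b11, a droplet protein, by 0.41 (limma adjusted p = 0.0182) and Nr1h3, which encodes LXR alpha, by 0.37 (limma adjusted p = 0.0310). Under median-of-ratios scaling these 4 were not called, with differences of 0.25, 0.54, 0.14 and 0.10 (limma adjusted p = 0.219, 0.0806, 0.316 and 0.542). With age in UBR4 mKO 4 of the 60 were called, or 6.67%, beside 6.29% of all genes. Abhd6 rose by 0.46 (limma adjusted p = 0.0188), Acsl6, as in WT, by 0.68 (limma adjusted p = 0.0122), and Lpin3 fell by 0.82 (limma adjusted p = 0.00328).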

How the data were processed

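Poly(A) RNA of 16 tibialis anterior muscle samples was sequenced (TruSeq, where the labels and the study's methods differ on kit and instrument). The authors deposited TPM values (read counts scaled by transcript length to 1 total in every sample) for 47643 genes, made in CLC Genomics Workbench from trimmed reads aligned to mm10. Annotation release, strand setting and treatment of multi-mapping reads are not given in the sources used here. TPM keeps no depth, so depth per sample and counting error are unknown.

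The 10628 genes whose TPM averaged 1 or more were tested with limma 3.58.1 in R 4.3.3, with trended moderated variances on log2(TPM + 0.1), 4 group terms, 5 comparisons and Benjamini-Hochberg adjustment over all genes, called under 0.05. The fit was tested on simulated data in which 200 of 10628 genes were shifted by 1.5 on the log2 scale. It recovered 94.5% of them, with 3.08% false calls. So few changed genes do not resemble the 6-month comparison, so this test does not bear on the general shift. Fold changes of low genes are understated on this scale. The alternatives were pseudocounts of 0.01 and 1, other filters, median-of-ratios scaling, rescaling without mitochondrial genes, sample weights, Kruskal-Wallis with Dunn tests (the study's own test), the replicate number as a block and leaving out each sample. Covariates for Y-linked and Xist RNA were added after seeing the data. Replicates are separate mice. Positions are from GENCODE vM21, promoters from RefSeq, and similar transcripts from minimap2 2.31.

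The members and lists were chosen with earlier results of these data known. Named are all 10 genes, the called gene with the largest rise and the largest fall of each role list in each pairwise comparison, the 5 genes most and least like G0s2, Ubr4, and markers beside a result. Eci1 was named after its value was seen, since the 4 genes called there are all given. Replicate numbers were not treated as pairs, since same-numbered samples deviated together in 4 of 24 group pairs (Pearson r over 0.1).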

Additional observations from a re-analysis of the deposited data

Results flagged for a closer look

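In 40 groups of 4 samples, 2 held a value far from the other 3, and chance gives such a value in about 2 of 40 groups. Abhd5 in 24-month UBR4 mKO was 17.6 TPM in replicate 3 and 21.3 to 21.6 in the others. Plin3 in 24-month UBR4 mKO was 20.3 TPM in replicate 1 and 24.6 to 24.9 in the others. The Plin2 knockout effect differed between the ages in the main fit, by -0.63 on the log2 scale, against -0.31 for the median gene. The call was lost under median-of-ratios scaling, at -0.30 (limma adjusted p = 0.286). It was also lost after rescaling without mitochondrial genes, at -0.42 (limma adjusted p = 0.145), and when some single samples were left out, as given above.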

How the results depend on the processing

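TPM keeps no depth, so counting error is unknown, and 4 samples per group limit the precision. Of the 9 tested genes, the number called in UBR4 mKO at 6 months stayed at 3 whenever any 1 sample was left out. Plin2 at 6 months was called in 29 of 29 alternatives, Pnpla2 in 28, Lipe in 27 and the fall of Dgat2 with age in WT in 28. Leaving out a 24-month sample does not change the 6-month difference itself, so these counts overstate the number of separate checks. Median-of-ratios scaling ended the Pnpla2 and Lipe calls (limma adjusted p = 0.0898 and 0.379). Rescaling without mitochondrial genes also ended the Lipe call (limma adjusted p = 0.170), and Dunn tests ended the Dgat2 call. With the replicate block, 3, 0, 2, 0 and 1 of the 9 were called in the order 6 months, 24 months, age in WT, age in UBR4 mKO and the difference between ages, as without it, and the numbers do not pair the samples (r from -0.35 to 0.18); of the other lipid genes 2 in place of 4 were called at 24 months, beside 0.358% of all genes. Leaving out 1 sample gave 1 to 3 calls among the 9 with age in WT, 0 to 1 with age in UBR4 mKO and 0 to 1 in the difference between ages. Among the other lipid genes it gave 20 to 35 calls at 6 months (20 without 6-month WT replicate 4), 1 to 4 at 24 months (1 without 24-month WT replicate 3 or 4, 2 without 24-month WT replicate 1 or 24-month UBR4 mKO replicate 4), 4 to 17 with age in WT (4 without 6-month WT replicate 4, 5 without replicate 3, 17 without replicate 2), 2 to 6 with age in UBR4 mKO (2 without 6-month UBR4 mKO replicate 2) and 2 to 3 in the difference between ages. Calls over all 10628 genes moved too. At 6 months 2626 were higher and 111 lower without 6-month WT replicate 4, and 6141 and 98 without replicate 2. With age in WT the same fits gave 894 and 80, and 4860 and 113. At 24 months 6 were higher and 2 lower without 24-month WT replicate 3. With age in UBR4 mKO 149 were higher and 255 lower without 6-month UBR4 mKO replicate 2. Median-of-ratios scaling called 9 of the other lipid genes at 6 months against 31 (2 shared, the other 7 lower), 1 at 24 months against 4 (1 shared) and 9 with age in UBR4 mKO against 4 (3 shared). It called 16.8%, 0.915% and 11.3% of all genes there. Rescaling without mitochondrial genes called 11 at 6 months, 8 with age in UBR4 mKO and 5 in the difference between ages, beside 14.8%, 9.28% and 1.94% of all genes. It called 1 of the 9 (Pnpla2) at 24 months, beside 0.613%, and 0 in the difference between ages. Array weights called 4 of the 9 at 6 months (Mgll added), 1 at 24 months (Pnpla2) and 4 with age in WT, beside 64.1%, 2.39% and 61.5% of all genes. Dunn tests called 0 with age in WT, where they called 0 of all genes tested. A fit with no variance trend called 1 of the other lipid genes at 24 months, beside 0.311% of all genes, and a mean TPM of at least 5 left 0 in the difference between ages, beside 6.25%. The cause was not tested. Signs turned only for differences that had not passed, under median-of-ratios scaling and then without mitochondrial genes: in UBR4 mKO at 6 months Abhd5 -0.33 and -0.23, Mgll -0.11 and -0.016, Plin4 -0.15 and -0.056, Plin5 -0.14 and -0.047 and Dgat2 -0.16 and -0.065; with age in WT Lipe -0.18 and -0.10 and Plin4 -0.12 and -0.036, and Pnpla2 -0.065 under the first; with age in UBR4 mKO Pnpla2 0.056 and 0.019; in the difference between ages Pnpla2 0.12 and 0.0018, Lipe 0.12 and 0.0065, Mgll 0.17 and 0.055 and Plin5 0.28 and 0.16. Array weights turned Mgll to -0.0056 and Plin5 to -0.084 at 24 months, Mgll to 0.099 with age in WT, and Pnpla2 to 0.0039 and Abhd5 to 0.026 with age in UBR4 mKO. The Y-linked covariate turned Mgll to 0.025 with age in WT and Pnpla2 to 0.015 and Plin3 to -0.091 with age in UBR4 mKO. Leaving out 1 sample moved signs within these ranges: at 6 months Abhd5 -0.032 to 0.089, Plin3 -0.29 to 0.0099 and Plin4 -0.018 to 0.53; at 24 months Plin5 -0.048 to 0.33; with age in WT Lipe -0.0019 to 0.17, Mgll -0.089 to 0.051, Plin4 -0.10 to 0.48 and Plin5 -0.25 to 0.022; with age in UBR4 mKO Abhd5 -0.088 to 0.0096, Plin3 -0.081 to 0.22 and Pnpla2 -0.043 to 0.039; in the difference between ages Abhd5 -0.043 to 0.093 and Plin5 -0.26 to 0.14.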
